A study of Mus musculus with 8 samples.

Results

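Catenins, N-cadherin, talins, vinculin, plakophilin, desmoplakin and ankyrins are anchor proteins of the junctions and membrane of the cardiomyocyte. This section describes where H3R17me2a was called in 10 of their genes among 21883 protein-coding genes. The 10 genes (Ctnna3, Ctnna1, Tln1, Tln2, Vcl, Cdh2, Pkp2, Dsp, Ank2 and Ank3) were chosen by function, and in part because earlier results on these peak lists had shown calls in Ctnna3 and Tln2. Every peak of the 4 deposited lists that overlapped a gene span (mm10) or 5 kb on either side was taken, which gave 33 peaks in 27 regions. Calls chose the genes, so the counts below are descriptions and carry no test.

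H3R17me2a is histone H3 that is asymmetrically dimethylated at arginine 17, a mark laid by the arginine methyltransferase Carm1. It was profiled by chromatin immunoprecipitation and sequencing (ChIP-seq) of cardiomyocyte nuclei from mouse hearts. All mice were Carm1 fl/fl and were injected on postnatal day 1 with an adeno-associated virus, AAV9, that carried either Cre, in the knockout, or GFP, in the control, with 2 ChIP libraries per group. The hearts were mosaic, so a knockout library can hold nuclei from cells that the virus did not reach. Nuclei were sorted by the cardiomyocyte marker PCM1 and the chromatin was cut with micrococcal nuclease. The labels do not say whether replicates came from separate animals, and the age at collection is not given in the labels.

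At the ends of neighbouring cardiomyocytes, the intercalated disc joins cells through adherens junctions and desmosomes. N-cadherin spans the gap in the adherens junction and binds catenins, whose alpha members link it to actin and to vinculin. Desmoplakin and plakophilin tie the desmosome to intermediate filaments. Along the side of the cell, talin and vinculin couple integrins to the sarcomere at costameres, and ankyrins hold channels and transporters in the membrane skeleton. Carm1 is known as a coactivator of transcription.

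Control 1 had 12990 peaks, control 2 had 8742, knockout 1 had 4980 and knockout 2 had 9531, and total read numbers are unknown. Where 4 values follow each other below, they stand in this order. With lists this unequal, a gene can hold fewer calls in one library only because that library has fewer calls everywhere. Fold enrichment is the authors' value for each peak. It was read here as fragments at the summit plus 1, divided by the local background plus 1, and folds of different lists are given side by side without being compared. Of 7 cardiomyocyte marker genes, 2, 2, 0 and 0 had a peak, and these were Ttn and Ryr2. None of 5 fibroblast markers had one in any list. Of 5 endothelial markers 2, 1, 0 and 2 had one, of 4 macrophage and immune markers 1, 1, 0 and 0, and of 4 smooth muscle and pericyte markers 0, 0, 1 and 1. Over all protein-coding genes the shares with a peak were 12.5%, 10%, 6.36% and 10.3%. Both controls and neither knockout had a peak, at any position, in 1.18% of all protein-coding genes. In the length class of Ttn (200 to 500 kb) this share was 6.29%, and in that of Ryr2 (500 kb or more) 4.87%. Nothing is read from the 2 marker genes with that pattern. A peak does not measure expression, so the lists cannot test the labelled cell type.

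The deposited files give positions and no bases. The sequences that could be shown are stretches of 250 bases before annotated transcription starts (RefSeq, GRCm38.p6), which were listed for 5 of the 10 genes (Ctnna3, Ank2, Tln1, Dsp and Vcl). The 4 below are the stretches with the most CpG among these genes and the stretch with the fewest. None of them was marked by a peak, and the same holds for the other stretches listed. CpG dinucleotides are in capitals, and each sequence reads 5′ to 3′ on the plus strand.
Ctnna3, first start, chr10:63429848-63430097: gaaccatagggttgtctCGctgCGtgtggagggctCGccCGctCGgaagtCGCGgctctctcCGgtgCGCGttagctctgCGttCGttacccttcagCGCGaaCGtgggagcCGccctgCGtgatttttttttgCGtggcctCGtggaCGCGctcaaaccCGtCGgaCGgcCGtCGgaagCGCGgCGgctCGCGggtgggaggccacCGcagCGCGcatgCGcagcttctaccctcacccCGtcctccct
Ctnna3, start nearest to a peak, chr10:63820805-63821054: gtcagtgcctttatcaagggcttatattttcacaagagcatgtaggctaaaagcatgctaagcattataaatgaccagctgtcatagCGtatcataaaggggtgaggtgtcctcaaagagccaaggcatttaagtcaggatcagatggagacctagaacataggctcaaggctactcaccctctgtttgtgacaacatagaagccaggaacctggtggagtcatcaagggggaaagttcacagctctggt
Vcl, chr14:20929148-20929397: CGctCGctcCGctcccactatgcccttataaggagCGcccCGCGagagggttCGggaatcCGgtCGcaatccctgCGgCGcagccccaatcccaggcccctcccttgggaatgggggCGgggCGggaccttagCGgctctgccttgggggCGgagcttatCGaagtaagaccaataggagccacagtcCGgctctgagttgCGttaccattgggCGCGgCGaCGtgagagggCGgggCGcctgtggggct
Dsp, chr13:38151044-38151293: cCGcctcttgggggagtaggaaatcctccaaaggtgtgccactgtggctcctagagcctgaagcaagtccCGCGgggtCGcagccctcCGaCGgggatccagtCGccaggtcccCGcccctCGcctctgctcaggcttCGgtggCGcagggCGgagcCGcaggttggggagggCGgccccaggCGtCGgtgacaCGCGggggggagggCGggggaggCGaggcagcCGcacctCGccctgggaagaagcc

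The first Ctnna3 start had 36 CpG in its 250 bases and a GC content of 67.6%, whereas the start nearest to a peak had 1 CpG and 45.6%. Vcl had 24 CpG and Dsp 22. The median over the 32851 windows of the table was 6 CpG and 52.4% GC, so the first Ctnna3 start, Vcl and Dsp lay above it and the other Ctnna3 start below it. No list had a peak in any of the 10 windows listed for these genes, counted with the 50 bases after each start. Such a call was rare everywhere, since 0.113%, 0.100%, 0.0609% and 0.103% of all windows held a peak. The summit nearest to a listed start lay 13.1 kb away, in Ctnna3 in control 1.

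Across the 10 genes, control 1 had 16 peaks, control 2 had 4, knockout 1 had 4 and knockout 2 had 9. The groups overlapped: controls averaged 10 ± 8.49 peaks and knockouts 6.5 ± 3.54 (SD, n = 2 each). As a share of its list this was 0.123%, 0.0458%, 0.0803% and 0.0944%, so that the controls were the highest and the lowest of the 4 libraries. The searched intervals sum to 3.76 Mb, or 0.138% of the chromosomes.

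The number expected from gene length was 18.0, 12.1, 6.89 and 13.2 peaks. It assumes that the peaks of each list fall evenly over chromosomes 1 to 19, X and Y. Over the 4 lists 33 peaks were called against 50.1 expected, a ratio of 0.658. By library the ratio was 0.891, 0.331, 0.581 and 0.683, below 1 in each and lowest in control 2, and it averaged 0.611 ± 0.396 over the controls and 0.632 ± 0.072 over the knockouts (SD, n = 2 per group). These peaks are sparser inside genes than outside them, and at the density of the same lists within protein-coding genes 39.2 peaks were expected, a ratio of 0.842. By library that ratio was 1.17, 0.420, 0.722 and 0.863, so on this basis control 1 was above 1.

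**Figure D1:**
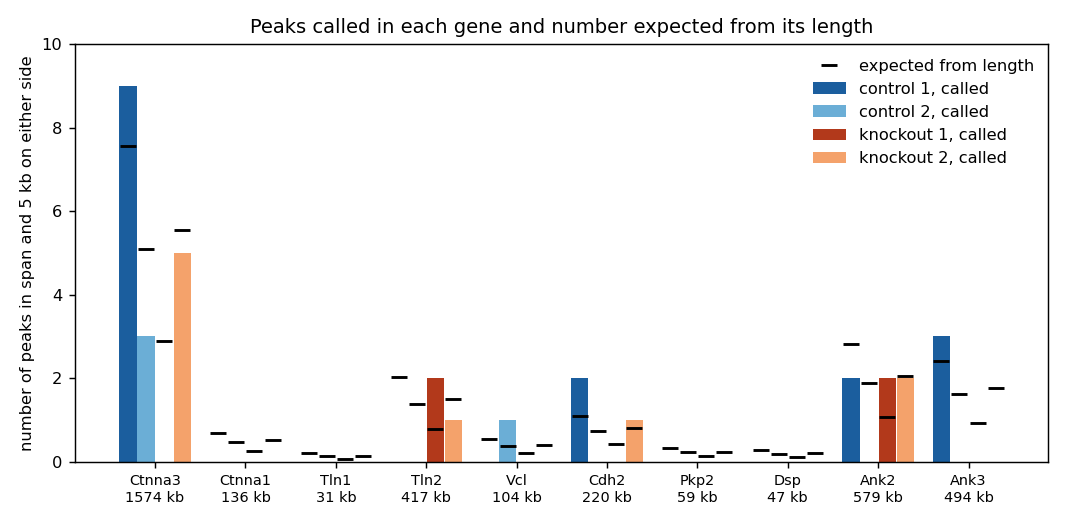
Bars give the number of peaks called in each gene span and 5 kb on either side, one bar per library (vertical axis, number of peaks; span in kb under each gene), and black dashes give the number expected from its length at the even density of that list. Ctnna3 in control 1 stands at 9 against 7.56 expected, Tln2 is above its dash in knockout 1 alone, and Ctnna1, Tln1, Pkp2 and Dsp hold no bar.

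The genes with calls were mostly the longest. Peaks were called in Ctnna3, Ank2, Ank3, Tln2, Cdh2 and Vcl. The other genes (Ctnna1, Pkp2, Dsp and Tln1) had none in any list, with a combined 314 kb searched and 4.19 peaks expected from length in the 4 lists together. By library, 4, 2, 2 and 4 of the 10 genes had a peak, against 12.5%, 10%, 6.36% and 10.3% of all protein-coding genes. Long genes were called far more often: among the 226 genes with a span of 500 kb or more these shares were 92.9%, 87.2%, 70.8% and 86.7%, and among the 763 of 200 to 500 kb they were 64.1%, 50.9%, 36.6% and 54.7%.

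**Figure D2:**
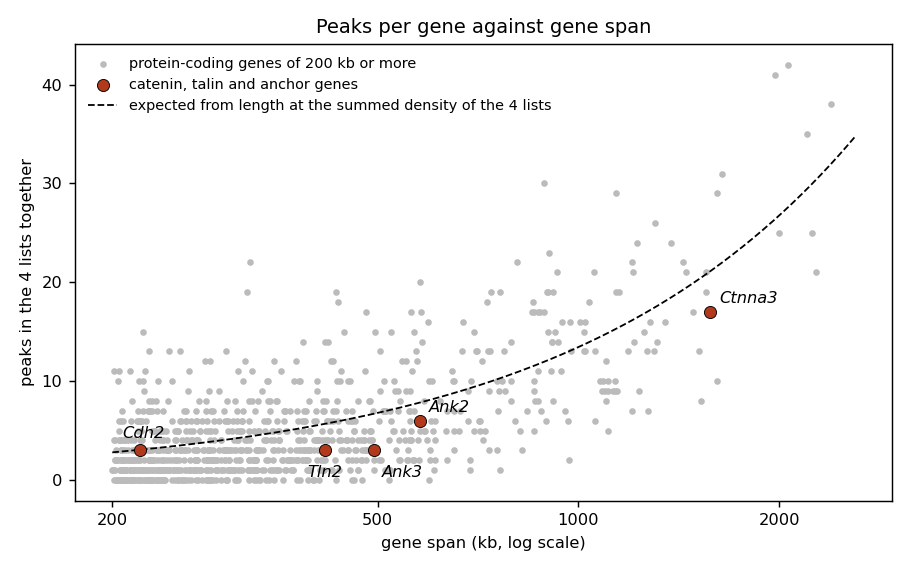
Each grey point is a protein-coding gene of 200 kb or more, with its span (horizontal axis, kb, log scale) and its peaks in the 4 lists together (vertical axis), red points are the members of that size, and the dashed curve is the number expected at an even density. Ctnna3, at 17 peaks, lies below the curve among genes that reach 42, and Tln2 and Ank3 hold 3 peaks each, also below it.

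Ctnna3 encodes alpha-T-catenin, the alpha catenin found mainly in heart and testis, which binds plakophilin 2 and so joins adherens junction and desmosome proteins in the area composita of the disc. Its span, chromosome 10 from 63430098 to 65003667, is 1574 kb long and ranks 11 among the 21883 genes. Control 1 had 9 peaks there, control 2 had 3, knockout 1 had 0 and knockout 2 had 5. Knockout 2 lay between the 2 controls, so the groups overlapped.

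From length at an even density, 7.56, 5.09, 2.90 and 5.55 peaks were expected in Ctnna3. On that basis control 1 was above its expected number and the other lists were below theirs. At the density within protein-coding genes 5.76, 4.01, 2.33 and 4.39 were expected, so knockout 2 was then above its number as well. The 4 lists together held 17 peaks against 16.5 expected in that way. Over the 4 lists the gene held 10.7 peaks per Mb searched. The 226 genes of 500 kb or more held 12.5 per Mb, and of the 59 genes of 1 Mb or more, 23 held more peaks than Ctnna3 and 35 held them more densely. The 17 peaks formed 13 regions, of which 3 were called in more than 1 library. All summits lay between 85.6 and 1352 kb from the first annotated start, and the longest stretch without a peak ran from 404 to 724 kb. Exons were not annotated in the table used here, so exon or intron is not assigned for any peak. Lrrtm3, the other protein-coding gene inside the span, held none of these peaks.

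The region of Ctnna3 called in both controls was also called in knockout 2, at chromosome 10 from 63723653 to 63724098, 294 kb from the first start. Its fold enrichment was 5.03 in control 1 (208 bp wide, 7 fragments at the summit), 5.25 in control 2 (276 bp, 7 fragments) and 8.05 in knockout 2 (251 bp, 10 fragments). None (0) of the 10 genes held a region that both controls and neither of the knockouts called, where 0.987% of all protein-coding genes did. The nearest peak of knockout 1 lay 618 kb away. The control peaks overlapped by 150 bp with summits 112 bp apart, while the control 1 and knockout 2 peaks touched over 13 bp only.

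A region called in both controls was held by 1 of the 10 genes, where 2.39% of all protein-coding genes and 37.2% of those of 500 kb or more held one. For a gene of the length of Ctnna3 this call was common, and nothing is read from it here. The control 1 peak ranked above 21.2% of its list by −log10 q and the control 2 peak above 43.7%, so both stood in the lower part, whereas the knockout 2 peak ranked above 88.9%. With only peaks of −log10 q of at least 5, knockout 2 alone called this position.

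The other shared regions of Ctnna3 joined control 1 with knockout 2. One lay at chromosome 10 from 63518449 to 63519096, where control 1 had 5.73-fold and knockout 2 had 5.12-fold enrichment, on 7 and 6 fragments. These peaks overlapped by 53 bp, 14.9% of the wider peak, which a rule of 50% reciprocal overlap does not count as shared. The other lay at 64623599 to 64623986, with 4.20- and 5.53-fold enrichment on 5 and 7 fragments. There the summits were 20 bp apart, the closest agreement in position of any shared region in the 10 genes.

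The remaining 10 regions of Ctnna3 were each called in 1 library: 6 in control 1, 2 in control 2 and 2 in knockout 2. Between 1344 and 1352 kb from the first start, 3 of them followed each other without touching, 1 each from control 2 (7.21-fold, 64773765 to 64773975), knockout 2 (5.85-fold, 64780608 to 64780819) and control 1 (6.45-fold, 64781688 to 64782009). The widest peak, 530 bp in control 1 at 63777608 to 63778137, had 6.45-fold enrichment on 8 fragments. Fold enrichment over the 17 peaks ranged from 4.20 to 8.05.

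**Figure D3:**
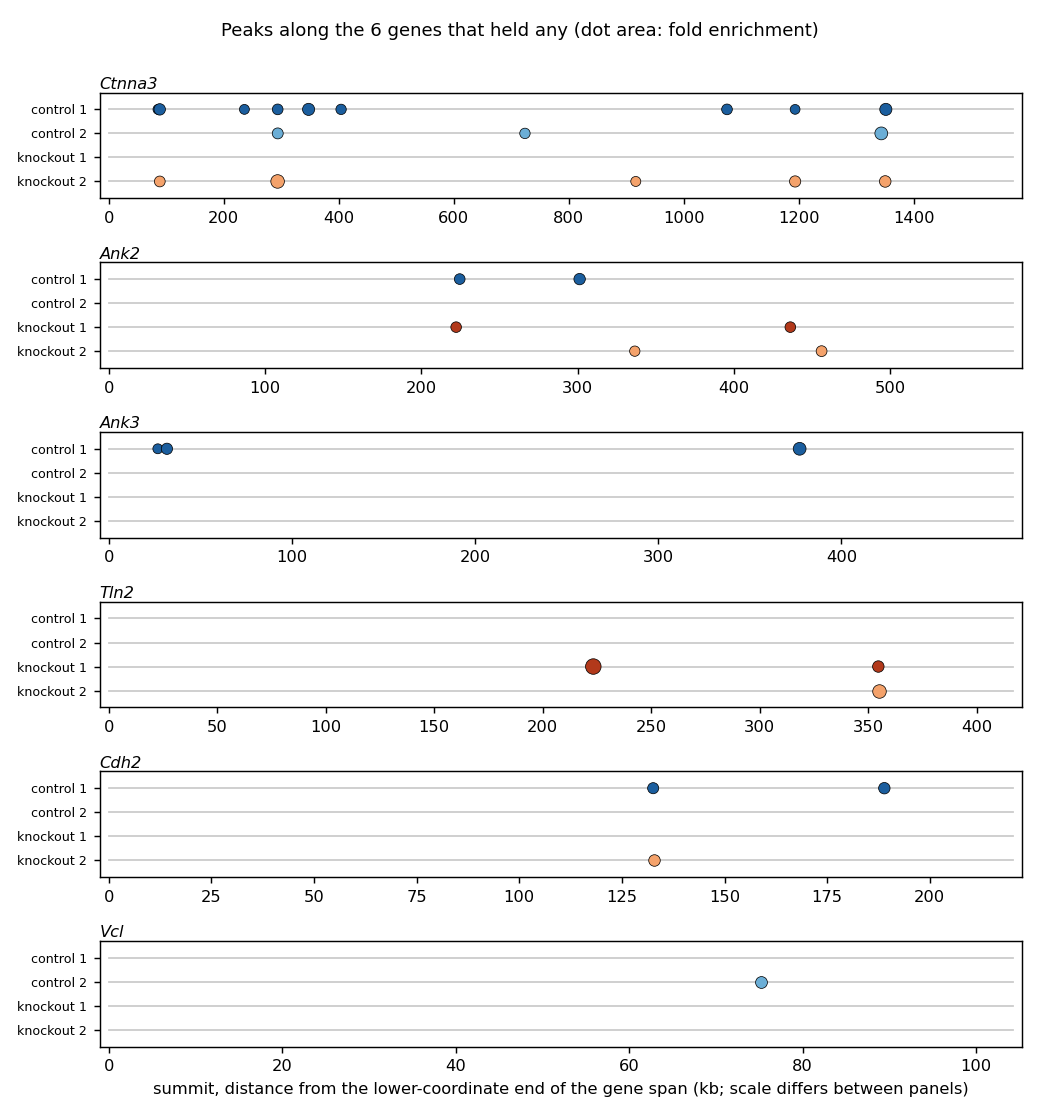
Each panel is the span of a gene (horizontal axis, distance of the summit from the lower-coordinate end of the span in kb), each row a library, and each dot a peak with an area in proportion to its fold enrichment. Ctnna3 has dots in control 1, control 2 and knockout 2 and none in knockout 1, Tln2 has dots in the knockouts alone and Ank3 in control 1 alone.

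Ctnna1, which encodes the widely expressed alpha-E-catenin that links cadherins to actin, held no peak in any list (chromosome 18 from 35118902 to 35254776, 136 kb). From its length 0.698, 0.470, 0.268 and 0.512 peaks were expected, so a count of 0 in each list is near what length gives. Cdh2 encodes N-cadherin, the cadherin of the intercalated disc, and spans 220 kb (chromosome 18 from 16588877 to 16809246). Control 1 had 2 peaks in it, control 2 and knockout 1 had 0 and knockout 2 had 1, against 1.10, 0.741, 0.422 and 0.808 expected.

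One Cdh2 region, from 16721315 to 16721891, was called in control 1 (5.41-fold, 374 bp) and knockout 2 (5.85-fold, 348 bp), each on 7 fragments. The peaks overlapped by 145 bp, 38.8% of the wider peak, so under a rule of 50% reciprocal overlap Cdh2 had no shared region. The nearest peak of control 2 lay 269 kb away and that of knockout 1 990 kb away. The other, from 16777429 to 16777857, was called in control 1 alone at 5.73-fold. Cdh2 was the densest of the 10 genes, at 13.0 peaks per Mb searched, on 3 peaks.

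Talin 2, encoded by Tln2, is the talin of mature striated muscle and links integrins to actin at costameres and discs. Its span covers 417 kb (chromosome 9 from 67217085 to 67634045) and had 0 peaks in each control, 2 in knockout 1 and 1 in knockout 2. Expected from length were 2.04, 1.37, 0.782 and 1.50, so that the controls and knockout 2 were below their numbers and knockout 1 was above its own. The groups did not overlap, which is the pattern for which the gene had been singled out.

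The region called in both knockouts and neither control lay from 67571618 to 67572039. Its peaks were 221 bp wide with 5.79-fold enrichment in knockout 1 and 219 bp wide with 8.05-fold enrichment in knockout 2, on 12 and 10 fragments. They overlapped by only 18 bp, 8.14% of the wider peak, and their summits were 220 bp apart. Of the 3035 regions in the whole series made of 1 peak from each of 2 libraries, 1.98% overlapped by 18 bp or less and 26.7% had summits at least as far apart, and the median overlap was 218 bp. Under a rule of 50% reciprocal overlap, the knockouts had no common region in Tln2. The nearest peak of control 1 lay 409 kb away and that of control 2 576 kb away.

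The local background under the knockout 1 peak was 1.25 fragments, against 0.608 under the other Tln2 peak of that library. Under the knockout 2 peak it was 0.367, which is not compared with knockout 1 because the depth of the libraries is unknown. Background here is the number of fragments expected at the summit, before 1 is added, solved from the fold and the p of that peak. The other Tln2 peak, from 67440243 to 67440670, was called in knockout 1 alone. It had 10.6-fold enrichment on 16 fragments over 428 bp, and ranked above 97.0% of its list by −log10 q.

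A region called in both knockouts and neither control was held by 1 of the 10 genes, Tln2, against 0.439% of all protein-coding genes and 2.10% of those of 200 to 500 kb (16 of 763). Since Tln2 was chosen for this call, nothing is read from these shares. Both knockouts but neither control had a peak at any position in 0.370% of all genes and 2.36% of the genes of 200 to 500 kb.

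**Figure D4:**
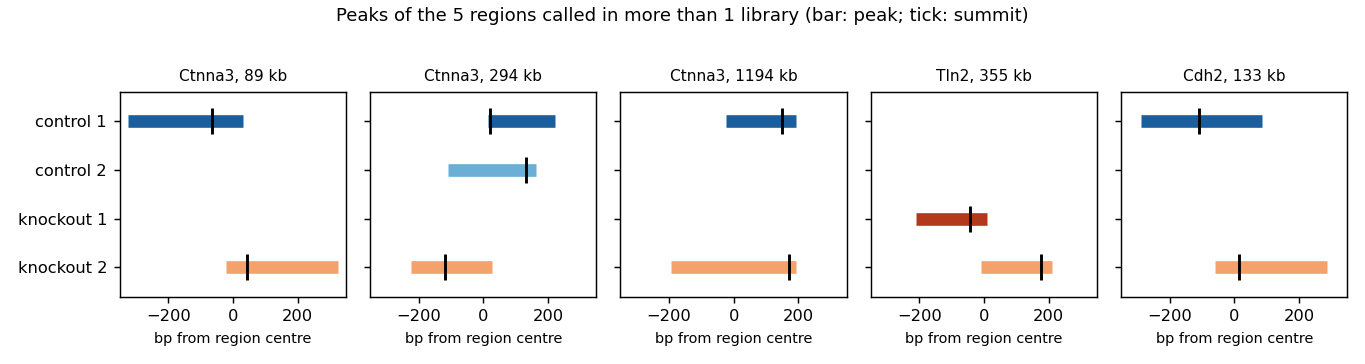
Each panel shows a region called in more than 1 library (horizontal axis, distance from its centre in bp), with a bar for the peak of each library and a tick for its summit. The Tln2 peaks of the knockouts touch over 18 bp, while the summits of the Ctnna3 region at 1194 kb lie 20 bp apart.

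Tln1, which encodes the talin present in most tissues, held no peak (chromosome 4 from 43531513 to 43562583, 31.1 kb), and 0.0758 to 0.198 were expected per list. Outside the searched interval, control 1 had a 14.2-fold peak 36.7 kb above the span (43599244 to 43599550) and knockout 2 a 10.2-fold peak 36.9 kb above it (43599468 to 43599683). Both folds exceeded all those of their own library inside the 10 genes. Vcl encodes vinculin, which reinforces the bond of talin and alpha catenin to actin, and spans 104 kb (chromosome 14 from 20929383 to 21033676). It held 1 peak, in control 2, of 6.12-fold enrichment on 8 fragments (21004384 to 21004685). The other lists had none there, against 0.547, 0.210 and 0.401 expected in control 1, knockout 1 and knockout 2.

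The desmosome genes had no call. Dsp, which encodes desmoplakin, the plaque protein that grips desmin filaments, spans 47.3 kb (chromosome 13 from 38151294 to 38198577), and 0.105 to 0.275 peaks were expected per list. Pkp2, which encodes plakophilin 2 and is the gene most often mutated in inherited arrhythmogenic cardiomyopathy, spans 59.4 kb (chromosome 16 from 16213345 to 16272712), with 0.128 to 0.333 expected. At these lengths a count of 0 is near what length gives and cannot be read as absence of the mark. Outside all searched intervals, the closest peak of each library lay 36.7 kb from Tln1 in control 1, 33.9 kb from Ank2 in control 2 (5.44-fold), 38.7 kb from Dsp in knockout 1 (7.46-fold) and 14.4 kb from Tln2 in knockout 2 (5.12-fold).

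Ankyrin B, encoded by Ank2, positions the sodium pump and the sodium-calcium exchanger in the cardiomyocyte. Its gene spans 579 kb (chromosome 3 from 126921607 to 127500347) and had 0 peaks in control 2 and 2 in each of the other libraries. Expected from length were 2.81, 1.89, 1.08 and 2.06. The 6 peaks fell at 6 different positions, with none shared between libraries.

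In Ank2, the fold enrichment was 5.02 and 5.73 in control 1, 4.93 and 4.97 in knockout 1, and 4.68 and 5.12 in knockout 2, on 6 or 7 fragments each. The closest peaks of different libraries, 127143756 to 127144034 in knockout 1 and 127145993 to 127146237 in control 1, were 1.96 kb apart. The gene runs on the minus strand, and the first of its 4 listed starts, at 127499115, lay 121 kb or more from every peak inside the gene. Ank2 thus had a peak in both knockouts without a region common to them, as 3.44% of all genes and 66.4% of those of 500 kb or more had a peak in both knockouts at any position.

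Ank3 encodes ankyrin G, which gathers the sodium channel Nav1.5 at the disc, and spans 494 kb (chromosome 10 from 69533486 to 70027436). All of its 3 peaks were called in control 1, where 2.41 were expected, and control 2, knockout 1 and knockout 2 had 0 against 1.62, 0.923 and 1.77. The fold enrichment was 4.30 at 69560141 to 69560440, 5.54 at 69564957 to 69565326 and 7.17 at 69910574 to 69910818, on 5, 7 and 9 fragments. The first and the last of these also overlapped the predicted genes Gm33464 and Gm33361. Control 2 had none, so the calls in Ank3 did not mark the controls as a group.

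All 33 peaks lay inside the gene spans and none in the flanks, and the summit nearest to the end of a span was 26.8 kb from it, in Ank3. Their median fold was 5.22, 5.69, 5.38 and 5.53 in the 4 libraries, against 5.69, 5.44, 5.54 and 5.66 over the whole lists. Summits held 5 to 16 fragments with a median of 7, and 31 of the 33 held 10 or fewer. By −log10 q, 22 of the 33 ranked below the middle of their own list and 1, in Tln2, above 90% of it. Control 1 gave 13 of the 22, from 16 peaks, and the other libraries 2 of 4, 2 of 4 and 5 of 9.

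**Figure D5:**
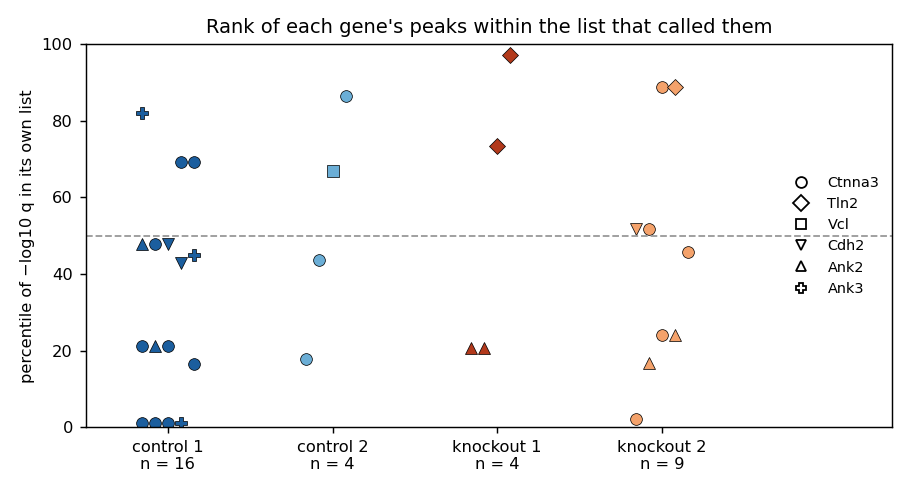
Each symbol is a peak, placed by its library (horizontal axis) and by the percentage of peaks in the same list with a lower −log10 q (vertical axis), with the dashed line at the middle of the list. The 16 peaks of control 1 lie mostly below the line, and the Tln2 peak of knockout 1 stands at 97.0.

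Of the 27 regions 22 (81.5%) were called in 1 library, 4 in 2, 1 in 3 and 0 in all 4. In the whole series 83.6% of 28843 regions were called in 1 library alone and 2.09% in all 4. Of all protein-coding genes 0.759% held a region of all 4 libraries and 5.22% one of at least 2, the latter being held here by Ctnna3, Tln2 and Cdh2. Such a region of at least 2 was held by 31.3% of the genes of 200 to 500 kb, the class of Tln2 and Cdh2. Among genes of 500 kb or more, the class of Ctnna3, the share was 67.3%. Without control 1, the list with the most peaks, 15 regions were left.

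Genes of the same structures that are not among the 10 were described from a list of 47, which all matched. Of these, 16 (34.0%), 8 (17.0%), 4 (8.51%) and 11 (23.4%) had a peak, above the shares over all protein-coding genes given above. Their median span was 58.6 kb, and among all genes of 50 to 200 kb the shares were 25.6%, 19.7%, 12.6% and 21.2%. Beside those, control 1 and knockout 2 were higher and control 2 and knockout 1 lower. Over the 6.51 Mb searched they held 62 peaks against 86.7 expected from length. None held a region called in both controls, where 2.39% of all protein-coding genes and 4.35% of those of 50 to 200 kb did. None held one called in both knockouts and neither control, where these shares were 0.439% and 0.86%. A region called in more than 1 library was held by 4 of the 47, where the shares were 5.22% and 10%. With shares this low, nothing is read from these counts.

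The 4 genes with a region called in more than 1 library were Lmo7, Parva, Afdn and Tjp1. Lmo7, a LIM domain adaptor at cell junctions, held one in control 1, knockout 1 and knockout 2 (chromosome 14 from 101811741 to 101812829, 7.17-, 6.22- and 5.43-fold). Parva, which encodes the alpha-parvin partner of integrin-linked kinase, held one in control 1 and knockout 1 (chromosome 7 from 112433078 to 112433625, 9.91- and 6.60-fold). Afdn, which encodes the nectin adaptor afadin, held one in control 1 and knockout 2 (6.45- and 6.22-fold), and so did Tjp1, which encodes the junction scaffold ZO-1 (4.98- and 5.85-fold). Control 1 was among the libraries in all 4.

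By group, 4 of 8 adherens junction genes, 2 of 8 genes of the desmosome and intermediate filaments, 7 of 15 integrin attachment genes, 2 of 7 genes of the ankyrin and spectrin skeleton and 6 of 9 disc-linked scaffold genes had a peak in any list, where 23% of all protein-coding genes did. That share was 13.3% under 50 kb, 47.7% at 50 to 200 kb and 87.2% at 200 to 500 kb, and the listed genes had a median span of 58.6 kb. The scaffold group held 19 peaks against 11.3 expected from length, and every other group held fewer than expected. The difference between groups was not tested. Ctnna2, a neural alpha catenin of 1098 kb, held 3, 2, 1 and 2 peaks and no shared region. Ctnnb1 and Jup, for beta-catenin and plakoglobin, had none, nor did Gja1, the gene of the gap junction protein connexin 43, or Des, the gene of desmin. These genes span 27.1, 29.0, 13.1 and 8.29 kb, and at such lengths the lack of a call cannot be read as absence of the mark.

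Among the 989 protein-coding genes of 200 kb or more, likeness to Ctnna3 and Tln2 was measured as the Euclidean distance in peaks per 100 kb over the 4 libraries. Lama2, a laminin chain gene, was closest to Ctnna3 at a distance of 0.0619, with 4, 1, 0 and 2 peaks over 636 kb. Sh3kbp1 and Zfp407 followed at 0.0972 and 0.107, each with 2, 1, 0 and 1 peaks. St6galnac3, Nos1ap and Spon1 were closest to Tln2, at 0.165, 0.166 and 0.166. St6galnac3 held 0, 0, 3 and 2 peaks, and Nos1ap and Spon1 0, 0, 1 and 1.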

How the data were processed

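H3R17me2a ChIP-seq peak lists of 2 control and 2 knockout libraries were used; the 4 input libraries have no lists of their own and were not analysed here. The submitters' processing notes name mm10 as the build, Bowtie2 and MACS2 among the tools, and FastQC, MultiQC and DiffBind; how they were run, and in which versions, is not given in the sources used here. For each peak the authors deposited a fold enrichment (ratio), a −log10 p and a −log10 q, and a score close to 10 times the −log10 p, as a whole number; lists were called per library, without pooling, per the file names. Depth is not known from them.

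Genes were RefSeq spans on GRCm38.p6, the assembly of mm10, and all 10 genes matched. Peaks were merged into regions at an overlap of 1 bp. The expected number is the list's peaks times the searched length (with the mean peak width) over the chromosome lengths, each taken to the furthest gene or peak end, 2722 Mb in all. Fragments at summits were solved from fold, taken as (fragments + 1)/(background + 1), and a Poisson p, within 0.01 in −log10 p; this form is not stated in the labels, and a whole number was found for all 33 peaks. Counting was tested on simulated data. The 10 genes, the junction list, the marker list and the rules were chosen with earlier results of these data known. Genes named are the 10, listed junction genes with a region in at least 2 libraries, at most 10 of them, and the 3 genes of 200 kb or more nearest to Ctnna3 and Tln2; junction genes named for having no peak or no shared region (Ctnna2, Ctnnb1, Jup, Gja1, Des) were chosen after their values were seen, as were the length classes. Alternatives were the distance to the span, a −log10 q minimum, equal list lengths, a 50% reciprocal overlap, leaving out each library and other bases for the expected number. Python 3.11.15, NumPy 2.4.6, pandas 2.3.3, SciPy 1.17.1 and Matplotlib 3.10.9 were used.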

Additional observations from a re-analysis of the deposited data

How the results depend on the processing

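The 27 regions fell in number to 7 at a −log10 q minimum of 5 and to 12 when all lists were cut to the same length, where fewer peaks were used, and ranged from 15 to 24 as each library was omitted; the lowest count was without control 1. No gene held a region called in both controls and neither knockout, except without knockout 2, where Ctnna3 did (range 0 to 1). At 50% reciprocal overlap, Ctnna3 held 2 regions of more than 1 library and Cdh2 none. Cdh2 also held none at a −log10 q minimum of 5 or with lists of equal length, where Ctnna3 held none and 1. Tln2 as the 1 gene with a region called in both knockouts and neither control became 0 genes at 50% reciprocal overlap, since its peaks overlapped by 18 bp, and stayed at 1 with either control left out (range 1 to 1); without a knockout library it cannot be computed. The ratio of observed to expected peaks, 0.658, ranged from 0.529 to 0.762 as each library was omitted, and from 0.508 (lists of equal length) to 0.842 (density within protein-coding genes) under the others; the density within genes of 200 kb or more, 0.748, was chosen after the data were seen. No paired analysis was possible because no value here comes from a test: calls chose the genes, so none was run.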
